A study of Mus musculus with 3 samples.

Results

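Forkhead genes of the facial mesenchyme were examined in RNA-Seq counts of the maxillary process, the paired swelling of the first pharyngeal arch that forms the upper jaw and the palatal shelves. The 10 genes were taken by name, *Foxc1*, *Foxc2*, *Foxd1*, *Foxd2*, *Foxf1*, *Foxf2*, *Foxl2*, *Foxp1*, *Foxp2* and *Foxp4*, from a table of 55401 genes, and the rule used gene names only. The 3 libraries, named OE replicates 1, 2 and 3 here, came from *wnt1cre; Rosa26Dlx2/-* mouse embryos at E10.5. In these embryos Cre recombinase under *wnt1* control removes a stop cassette in front of a CAG-driven, 3xFlag-tagged *Dlx2* at the *Rosa26* locus, so that *Dlx2* is overexpressed (OE) in cells derived from the neural crest and not in the surface epithelium, the endothelium or the mesodermal cells of the same tissue. All 3 libraries carry this genotype, stage and tissue, and wild-type embryos were not analysed here. No value below is a difference between genotypes. The authors describe the 3 RNA samples as independent. The labels do not say whether each RNA sample came from 1 embryo or from several. A spread between the libraries may be technical in part.

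Forkhead factors bind DNA through a shared winged-helix domain, the forkhead box. In the head, *Foxc1* and *Foxc2* act in mesenchyme around the eye and in the skull vault, *Foxf1*, *Foxf2*, *Foxd1* and *Foxd2* are expressed in facial mesenchyme that responds to Hedgehog signals, and loss of *Foxf2* gives cleft palate in mice. *Foxl2* is known from the mesenchyme of the eyelids and from the ovary. The FOXP proteins are a separate branch that pairs with itself through a leucine zipper and mostly represses transcription.

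The annotated structure split the genes in the same way. *Foxc1*, *Foxc2*, *Foxd1*, *Foxd2* and *Foxl2* are single-exon genes, *Foxf1* and *Foxf2* have 2 exons, and the longest transcripts of *Foxp1*, *Foxp2* and *Foxp4* have 19, 19 and 17. Closely related members hold stretches of identical sequence, which matter for a count table because a read inside such a stretch cannot be placed. The longest identical run between any 2 members was 53 bases, in *Foxc1* and *Foxc2*, and the median over all 45 pairs was 17 bases, against reads of 150 bases. The 3 longest runs all lay in coding sequence. They are shown with 24 bases on each side, the identical run in capitals and the flanks in lower case, from mm10 (GENCODE M21), 5′ to 3′ on the strand of the gene.
Foxc1, chr13:31807622-31807722, plus strand: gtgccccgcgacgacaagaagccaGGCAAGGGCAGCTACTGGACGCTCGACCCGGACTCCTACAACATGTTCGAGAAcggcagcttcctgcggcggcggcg
Foxc2, chr8:121117008-121117108, plus strand: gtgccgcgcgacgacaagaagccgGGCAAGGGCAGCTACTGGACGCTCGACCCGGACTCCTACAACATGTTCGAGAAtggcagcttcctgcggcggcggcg
Foxd1, chr13:98355007-98355101, plus strand: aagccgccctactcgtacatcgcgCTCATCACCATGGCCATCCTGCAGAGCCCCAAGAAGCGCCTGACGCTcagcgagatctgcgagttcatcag
Foxd2, chr4:114908343-114908437, minus strand: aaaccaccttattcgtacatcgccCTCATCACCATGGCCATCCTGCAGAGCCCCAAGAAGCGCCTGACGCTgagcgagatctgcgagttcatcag
Foxf1, chr8:121084633-121084721, plus strand: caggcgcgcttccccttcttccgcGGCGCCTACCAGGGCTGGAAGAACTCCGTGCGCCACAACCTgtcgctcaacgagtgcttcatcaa
Foxf2, chr13:31626470-31626558, plus strand: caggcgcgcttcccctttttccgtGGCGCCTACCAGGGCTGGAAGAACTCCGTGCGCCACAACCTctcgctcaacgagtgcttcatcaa
The run of the *Foxd* pair was 47 bases and that of the *Foxf* pair 41 bases, so no read of full length lies inside any of them. Between a member and any of 33 other forkhead genes, no run exceeded the 53 bases of the *Foxc* pair. *Foxp1* and *Foxp2* shared 35 bases, a stretch of cag and caa repeats.

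The libraries held 36544554, 35351031 and 40057435 counts on genes, and levels are given as counts per 1000000 (CPM) after TMM scaling. *Dlx2*, the overexpressed gene, was at 235, 201 and 183 CPM in replicates 1, 2 and 3. The 8 facial mesenchyme genes (*Prrx1*, *Prrx2*, *Twist1*, *Msx1*, *Pdgfra*, *Pdgfrb*, *Alx1* and *Tfap2a*) summed to 1644, 1696 and 1788 CPM, and none was under 1 CPM in any library, so markers of the labelled tissue were present in each. Single genes of this list went in opposite directions, such as *Prrx1* at 629, 582 and 419 CPM and *Twist1* at 317, 342 and 464 CPM. Of the 8, 3 were highest in replicate 1, 1 in replicate 2 and 4 in replicate 3. The summed markers of several other cell types differed more between the libraries. The 9 neuron genes summed to 273, 24.3 and 35.9 CPM and 7 epithelium genes to 456, 297 and 275 CPM, while 6 eye and forebrain genes summed to 21.3, 153 and 142 CPM and 7 pigment cell genes to 5.00, 33.9 and 157 CPM. Sums closer to each other were those of the 5 periocular mesenchyme genes at 250, 208 and 220 CPM and of the 5 lens genes at 7.88, 7.47 and 7.41 CPM, although single genes of these lists went in opposite directions, such as *Tfap2b* at 43.9, 19.8 and 10.1 CPM and *Alx4* at 70.1, 95.6 and 90.5 CPM. The 5 erythroid genes had the largest sum, 1947, 3633 and 4262 CPM, lowest in replicate 1 and highest in replicate 3. Pigment cell genes had 2 members at 0 counts in replicate 1. Replicate 3 also differed by gene length, with a median log2 ratio to the other libraries of 0.64 for genes of up to 2000 exonic bases and -0.56 for genes over 8000. The part of these differences in the values of the forkhead genes was tested only for gene length and GC content. In bulk tissue, fewer cells of a type and less RNA per cell cannot be told apart.

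All 10 forkhead genes were detected in every library, with a lowest count of 353 (*Foxf1* in replicate 1, exact Poisson 95% interval 317 to 392, for counting error only). In CPM, 9 of the 10 were at 10 or more in every library. The exception was *Foxf1*, and the median of the 10 mean levels was 37.3 CPM, beside 14.0 CPM for the 17115 genes tested, those that averaged 10 counts or more.

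**Figure D1:**
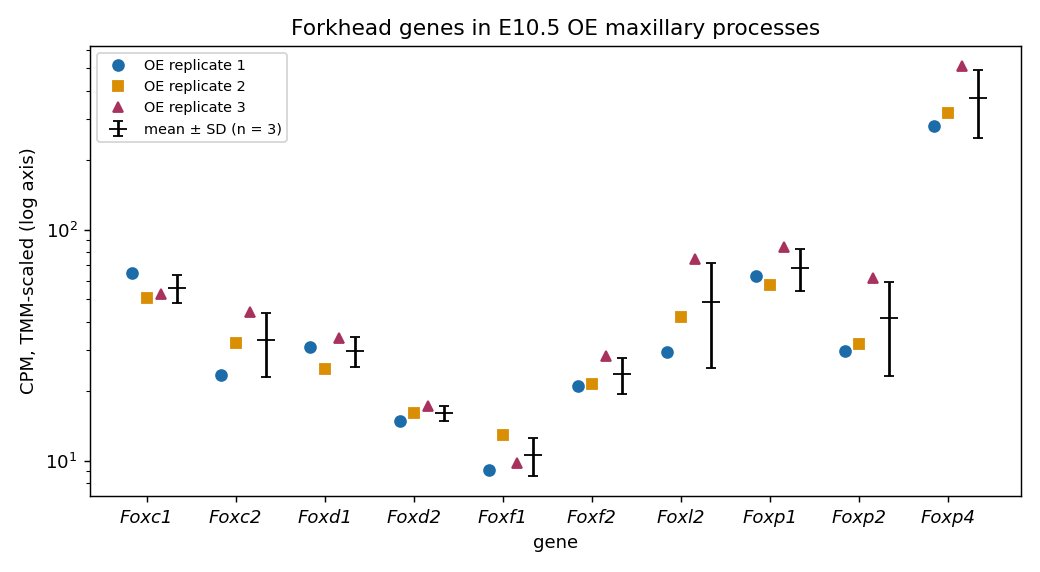
CPM of each forkhead gene on a log axis, in alphabetical order, with 1 point for each OE library and a black bar for the mean ± SD (n = 3). *Foxp4* stands above the others at 282 to 509 CPM, and the triangles of replicate 3 are the highest points for 8 of the 10 genes.

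*Foxp4*, which is known from lung and gut epithelium and from neural tissue, was the most abundant of the group. Gene ENSMUSG00000023991 (chromosome 17, 47867133 to 47924645, minus strand) had 10887, 11437 and 19176 counts, or 282, 321 and 509 CPM, in replicates 1, 2 and 3. Its mean was 371 ± 121 CPM (SD, n = 3), and it alone took 49.6%, 52.6% and 55.6% of the counts on the 10 genes. *Foxp1* (ENSMUSG00000030067, chromosome 6, 98925338 to 99522721, minus strand), a repressor known from heart, lung and lymphoid cells, had 63.0, 57.8 and 84.4 CPM, with a mean of 68.4 ± 14.1. *Foxp2* (ENSMUSG00000029563, chromosome 6, 14901349 to 15441977, plus strand), the gene tied to speech and vocal motor circuits, had 29.9, 31.9 and 61.9 CPM, with a mean of 41.2 ± 17.9. All 3 *Foxp* genes were highest in replicate 3, where they summed to 655 CPM against 375 and 411 in replicates 1 and 2. *Foxp3*, the remaining gene of this branch and a marker of regulatory T cells, had 7, 5 and 6 counts. These may be too low, because 853 of its 4577 exonic bases (18.6%) are shared with *Flicr* on its own strand. It also shares bases with genes on the opposite strand.

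Per length, *Foxp4* again led its relatives. Levels between genes were compared as transcripts per 1000000 (TPM), counts divided by all annotated exonic bases of the gene and scaled to 1000000 in each library. *Foxp4* was at 214, 209 and 259 TPM, *Foxp1* at 17.1, 13.5 and 15.4 TPM, and *Foxp2* at 6.84, 6.24 and 9.50 TPM. The log2 ratio of *Foxp4* to *Foxp1* was 3.64, 3.95 and 4.07, a mean of 3.89 ± 0.22 (SD, n = 3) or 14.8-fold. It depended on the length used, since the annotated exons of *Foxp1* and *Foxp2* add up to 13751 and 16346 bases over many transcripts against 4926 for *Foxp4*. With coding bases only, the mean log2 ratio was 2.49, and with the longest transcript it was 3.25. *Foxp1* exceeded *Foxp2* by 1.04 ± 0.32 on the log2 scale, by 0.71 with the longest transcript and by 0.93 with coding bases. The order *Foxp4*, *Foxp1*, *Foxp2* was present in all 3 libraries.

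The *Foxc* genes, regulators of mesenchyme around the eye and of the skull vault, changed places between libraries in TPM over all exonic bases, while *Foxc1* had the higher CPM in every library. *Foxc1* (ENSMUSG00000050295, chromosome 13, 31806633 to 31812476, plus strand) had 64.9, 50.4 and 52.8 CPM, a mean of 56.0 ± 7.77 (SD, n = 3), and was highest in replicate 1. *Foxc2* (ENSMUSG00000046714, chromosome 8, 121116171 to 121118895, plus strand) had 23.5, 32.4 and 44.0 CPM, a mean of 33.3 ± 10.3, and was lowest in replicate 1. The log2 ratio of *Foxc1* to *Foxc2* in TPM was 0.36 in replicate 1, -0.46 in replicate 2 and -0.84 in replicate 3. Its mean of -0.31 ± 0.61 (SD, n = 3) was smaller than the spread between the libraries, and with coding bases in place of all exonic bases it was 0.63. Which of them was higher per length therefore depended on the library and on the length used.

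The *Foxf* genes are targets of Hedgehog signalling in mesenchyme of the face and gut. *Foxf2* (ENSMUSG00000038402, chromosome 13, 31625816 to 31631403, plus strand) had 21.0, 21.4 and 28.5 CPM, a mean of 23.6 ± 4.22 (SD, n = 3). *Foxf1* (ENSMUSG00000042812, chromosome 8, 121084386 to 121088144, plus strand) had 9.15, 12.8 and 9.74 CPM, a mean of 10.6 ± 1.98, the lowest of the group in CPM. *Foxf2* exceeded *Foxf1* in TPM in each library, by 1.23, 0.77 and 1.58 on the log2 scale. The mean of 1.19 ± 0.41 (SD, n = 3) corresponds to 2.28-fold, and with coding bases the log2 ratio was 0.92. With 3 libraries, an exact two-sided sign-flip test of such a within-library ratio cannot go below p = 0.25, and no test of these ratios was made.

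The *Foxd* genes, markers of facial and kidney mesenchyme, were close to each other in TPM over all exonic bases, but not over coding bases. *Foxd1* (ENSMUSG00000078302, chromosome 13, 98354242 to 98359305, plus strand) had 31.0, 25.0 and 33.8 CPM, a mean of 29.9 ± 4.48 (SD, n = 3). *Foxd2* (ENSMUSG00000055210, chromosome 4, 114906282 to 114908873, minus strand) had 14.8, 16.1 and 17.2 CPM, a mean of 16.0 ± 1.21, and its coefficient of variation of 7.52% was the smallest of the 10. Over all exonic bases their TPM levels could not be told apart, with log2 ratios of *Foxd1* to *Foxd2* of 0.10, -0.33 and 0.01. The mean was -0.07 ± 0.23. With coding bases the mean log2 ratio was 1.00, with *Foxd1* at 23.9 and *Foxd2* at 11.9 TPM. The lengths differ because *Foxd1* has 5064 exonic and 1368 coding bases and *Foxd2* 2592 and 1476.

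*Foxl2*, known from the eyelid mesenchyme and the granulosa cells of the ovary, varied most in CPM with no trend subtracted. Gene ENSMUSG00000050397 (chromosome 9, 98955288 to 98958543, plus strand) had 1139, 1483 and 2812 counts, or 29.5, 41.7 and 74.6 CPM, a mean of 48.6 ± 23.4 (SD, n = 3). The coefficient of variation was 48.0%, and replicate 3 stood above the other libraries by 1.09 on the log2 scale, or 0.60 with a fitted trend on length and GC subtracted, where *Foxp2* (1.78) and *Foxp1* (1.17) had larger ratios. It was at 33.9, 40.9 and 57.5 TPM and followed *Foxp4* in mean TPM, although in replicate 1 *Foxc1* was higher, at 41.5 TPM.

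**Figure D2:**
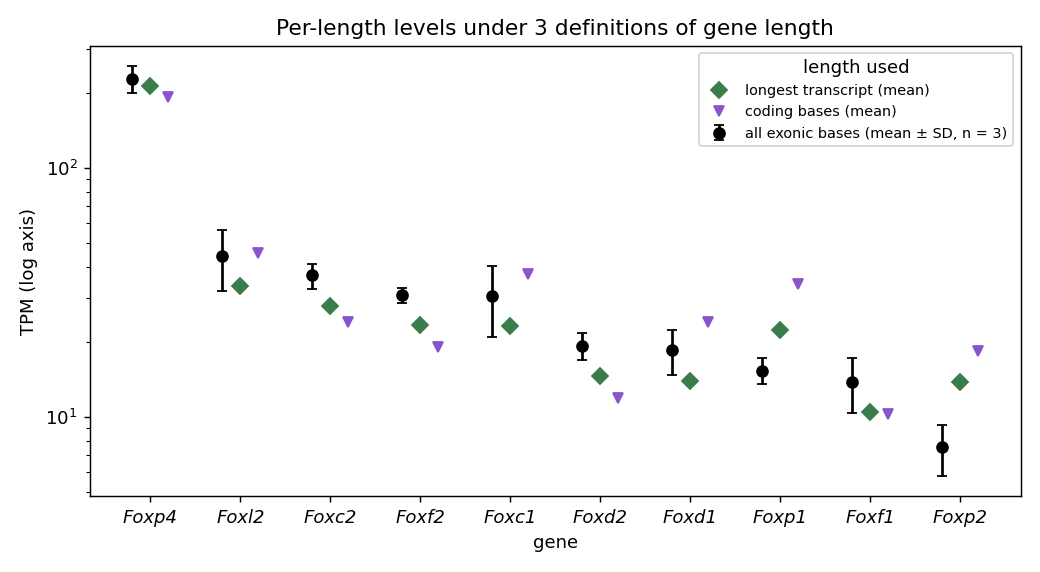
Mean TPM of each gene on a log axis with 3 definitions of gene length, where black points use all exonic bases with SD over the 3 OE libraries, diamonds the longest transcript and triangles the coding bases. *Foxp4* leads under each definition (227, 212 and 193 TPM), while *Foxp1* moves from 15.3 to 34.2 TPM and *Foxd2* from 19.3 to 11.9 TPM between exonic and coding bases.

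The order by mean TPM over all exonic bases was *Foxp4* (227), *Foxl2* (44.1), *Foxc2* (36.9), *Foxf2* (30.8), *Foxc1* (30.6), *Foxd2* (19.3), *Foxd1* (18.5), *Foxp1* (15.3), *Foxf1* (13.8) and *Foxp2* (7.53). Between neighbours in this order, 3 steps had ranges over the libraries that did not overlap, from *Foxp4* to *Foxl2* (5.15-fold), from *Foxc1* to *Foxd2* (1.58-fold) and from *Foxf1* to *Foxp2* (1.83-fold). The last step reversed with both other lengths, since *Foxf1* was at 10.4 and *Foxp2* at 13.8 TPM with the longest transcript and at 10.3 and 18.4 TPM with coding bases. The other 6 neighbouring pairs had overlapping ranges. Only the places of *Foxp4* and *Foxl2* were the same with coding bases. There *Foxc1* and *Foxp1* followed those 2, and *Foxf1* came last.

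Between the libraries, all 10 genes differed by more than counting noise (chi-square test of the 3 counts against the scaled library sizes, Benjamini-Hochberg adjusted over 17115 genes), as did 81.5% of all genes tested. This test compares libraries and not conditions, and at this depth most genes pass it. *Foxd2* was nearest to the threshold, with an adjusted p of 0.0391, followed by *Foxf1* with 2.03e-06. Without replicate 3, 7 of the 10 passed, *Foxd2*, *Foxf2* and *Foxp2* did not, and the share of all genes was 48.8%. Without replicate 1, *Foxc1* and *Foxd2* did not pass, beside a share of 71.2% of all genes, and without replicate 2 *Foxf1* did not, beside 77.7%. A highest level of at least 2 times the lowest was found for 2 of the 10, *Foxl2* and *Foxp2*, beside 34.8% of all genes. Without replicate 3, 0 of the 10 reached it, beside 7.24% of all genes, and without replicate 1 it was also 0, beside 18.3%.

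The biological coefficient of variation stands for the relative SD between replicates beyond counting error. The edgeR estimate draws each gene toward genes of similar level, so it is not the gene's own spread. *Foxd2*, for example, had 0.258 beside a coefficient of variation of 7.52% in CPM. The estimates ran from 0.234 for *Foxc1* to 0.365 for *Foxl2*. Their median over the 10 genes was 0.279, beside 0.339 for all genes tested. The estimate was below that all-gene median in 8 of the 10 genes, where the background is 50.0% by construction. The exceptions were *Foxl2* and *Foxp2*. The 10 genes also had a higher median level than all genes tested, 37.3 against 14.0 CPM. Genes of matched level were not compared, so a lower coefficient is not shown to be a trait of the group. Without replicate 3 both medians were lower, at 0.162 for the forkhead genes and 0.209 for all genes.

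The forkhead genes stood mostly highest in replicate 3 and lowest in replicate 1. Replicate 3 held the highest CPM of 8 of the 10 genes, beside 43.2% of all genes, and with library totals in place of TMM scaling it held the highest of 6, beside 37.7%. It held the lowest of 0, beside 45.6% of all genes, and with library totals the lowest of 2 (*Foxc1* and *Foxf1*), beside 51.6%. Replicate 1 held the highest of 1 (*Foxc1*), beside 39.6% of all genes, or of 2 (*Foxc1* and *Foxd1*), beside 47.6%, with library totals, and the lowest of 7, beside 39.3%, or of 5, beside 32.4%, with library totals. Replicate 2 held the highest of 1 (*Foxf1*), beside 17.2%, and the lowest of 3 (*Foxc1*, *Foxd1* and *Foxp1*), beside 15.1%. The median log2 ratio of the 10 genes was 0.45 in replicate 3 against the other libraries, -0.20 in replicate 2 and -0.26 in replicate 1, and the medians of all genes tested were -0.03, 0.03 and 0.01. Past a 2-fold difference in replicate 3 were *Foxl2* (1.09 on the log2 scale) and *Foxp2* (1.00), beside 12.6% of all genes in that direction, and 0 of the 10 were past 2-fold lower there, beside 1720 of the 17115 genes tested. In replicate 1, 0 of the 10 were past 2-fold in either direction, beside 5.57% of all genes higher and 6.69% lower. In replicate 2 it was also 0 of 10, beside 2.08% higher and 2.72% lower.

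Subtracting a smooth function of exonic length and GC content, fitted over all genes tested in each library, lowered some of these ratios and raised others. Replicate 3 was then the highest for 5 of the 10 genes, *Foxd1*, *Foxl2*, *Foxp1*, *Foxp2* and *Foxp4*, beside 43.6% of all genes, and also for 5 with the longest transcript in place of all exonic bases, beside 43.5%. It was the lowest for 4 (*Foxc1*, *Foxd2*, *Foxf1* and *Foxf2*), beside 41.8% of all genes, or for 3 with the longest transcript, beside 41.7%. Replicate 1 was the lowest for 5, beside 39.8%, or 39.2% with the longest transcript, and the highest for 2 (*Foxc1* and *Foxf2*) with either length, beside 34.7% and 34.2%. The median log2 ratio of the group in replicate 3 was 0.14, or 0.27 with the longest transcript, and it was -0.02 in replicate 2 and -0.17 in replicate 1. *Foxf2* went from 0.43 to -0.17 and *Foxd2* from 0.15 to -0.45, while *Foxc2* fell from 0.67 to 0.10. The *Foxp* genes divided. *Foxp4*, with 4926 exonic bases and a GC content of 63.4%, went from 0.76 to 0.41. *Foxp1* and *Foxp2*, long genes with GC contents of 44.9% and 42.6%, went the other way, from 0.48 to 1.17 and from 1.00 to 1.78. With the longest transcript, a setting added once the values were known, these were 1.17 and 1.74.

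**Figure D3:**
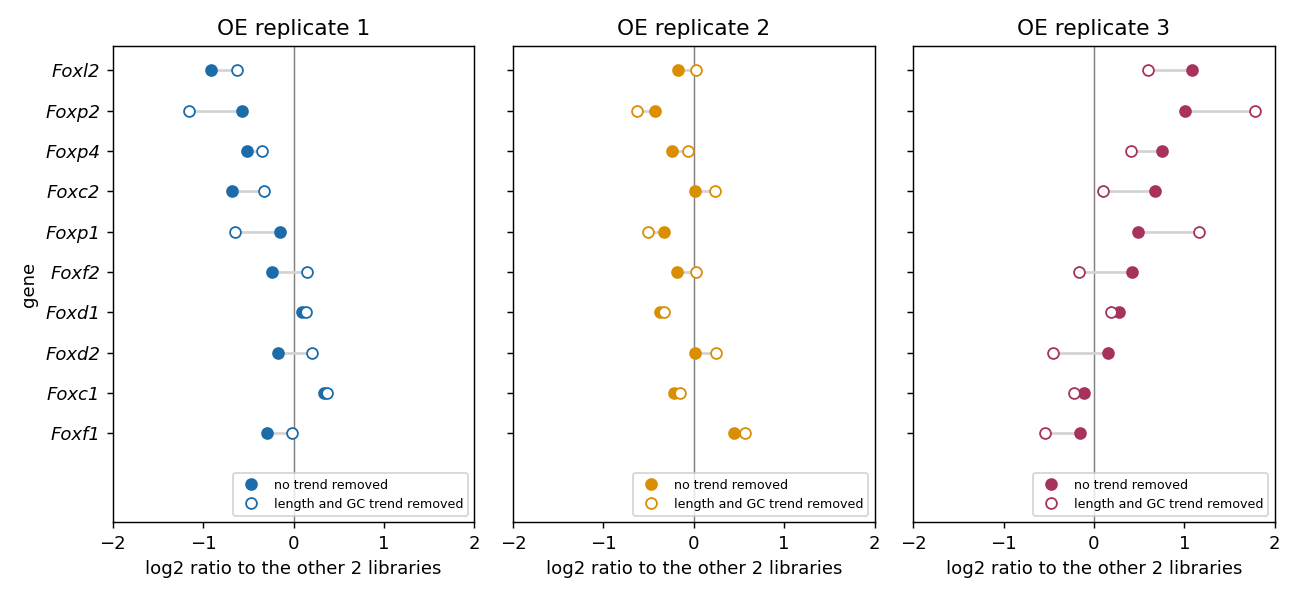
Log2 ratio of each OE library to the mean of the other libraries for the 10 forkhead genes, 1 panel per library, before (filled points) and after (open points) removal of the trend with exonic length and GC content. In replicate 3 *Foxp2* moves from 1.00 to 1.78 and *Foxf2* from 0.43 to -0.17.

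The gene nearest to *Foxl2* in its pattern over the 3 libraries, by Euclidean distance of centred log2 CPM among 11854 genes that averaged 100 counts or more, was *Dennd6b* (0.00694), followed by *Sil1* (0.00725) and *Rps26* (0.0105). With 3 libraries such matches are common, and 133 genes lay within 0.1. Of the other forkhead genes of the group, *Foxp2* was nearest to *Foxl2*, at 0.294, and *Foxc1* farthest, at 1.16.

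Several of the genes lie in clusters. On chromosome 13, *Foxq1*, *Foxf2* and *Foxc1* lie on the same strand with gaps of 64839 and 175229 bases. *Foxq1*, a regulator of hair and stomach cells, was at 0.829, 0.281 and 0.876 CPM, below *Foxf2* and *Foxc1* in every library. However, 3200 of its 4843 exonic bases (66.1%) are shared with *A530084C06Rik* on the opposite strand, so its counts may be too low, depending on the strand setting. On chromosome 8, *Foxf1*, *Foxc2* and *Foxl1* follow each other, with 28026 bases between the first pair and 9044 between the second. *Foxl1*, a gene of gut and skull base mesenchyme, was at 4.87, 3.65 and 10.2 CPM. *Foxc2* and *Foxl1* were both highest in replicate 3 in CPM, whereas *Foxf1* was highest in replicate 2. With the trend on exonic length and GC subtracted, *Foxc2* was also highest in replicate 2 (0.23 on the log2 scale against 0.10 in replicate 3). *Foxl1* stayed highest in replicate 3 (0.78). *Mthfsd*, between *Foxf1* and *Foxc2*, was at 32.8, 41.1 and 65.5 CPM, and *Gmds*, an enzyme of fucose synthesis that ends 7102 bases from *Foxc1*, was at 16.2, 16.3 and 22.6 CPM.

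**Figure D4:**
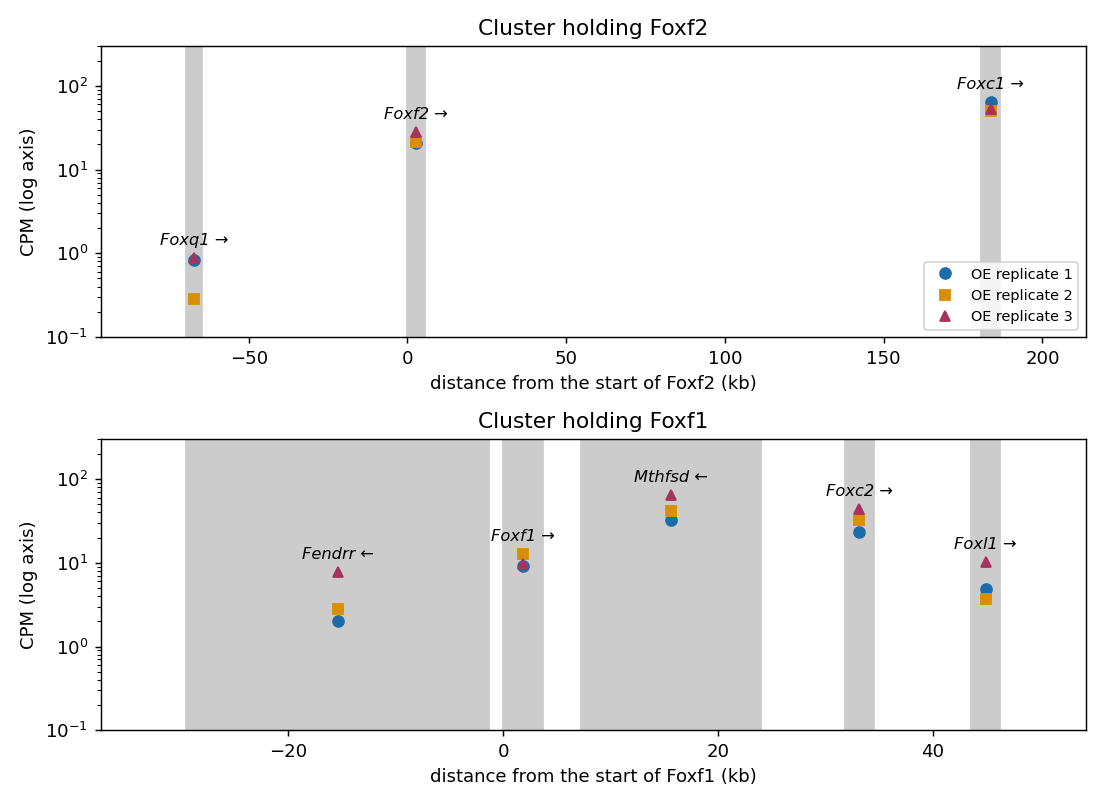
CPM (log axis) in each OE library for genes of the clusters that hold *Foxf2* (top) and *Foxf1* (bottom), placed by distance in kb from the start of that gene, with grey bands for the gene bodies and arrows for the strand. *Foxq1* lies under 1 CPM in every library and *Foxf2* and *Foxc1* above 20.

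Besides, 3 of the genes have a long non-coding RNA gene beside them on the opposite strand, head to head. *Fendrr*, a regulator of heart and body wall mesenchyme that starts 1275 bases from *Foxf1*, was at 2.02, 2.78 and 7.75 CPM. It was highest in replicate 3, where *Foxf1* was at 9.74 CPM against 12.8 in replicate 2. *Foxl2os* overlaps *Foxl2* by 12 exonic bases and was at 15.9, 23.7 and 25.4 CPM, lowest in replicate 1 and highest in replicate 3 as *Foxl2* was, but with the trend on exonic length and GC subtracted it was highest in replicate 2 (0.29 on the log2 scale against 0.21 in replicate 3). *Foxd2os*, with 383 bases between it and *Foxd2*, was at 11.8, 10.8 and 17.7 CPM. The strand setting of the counting is not given in the sources used here, and reads over the bases shared by *Foxl2* and *Foxl2os* cannot be told apart without it. The same holds for 98 bases each of *Foxf1* and *Foxf2* that carry annotated microRNA genes on the opposite strand, which had 0 counts in every library. *Foxp1* shares 300 bases with *Gm20696* and 135 with *Gm49348* on its own strand, 2.18% and 0.982% of its exonic bases, and reads there cannot be told apart at any strand setting.

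Promoter sequence was looked at for the genes in RefSeq's table for GRCm38.p6, which held 7 of the 10 (*Foxc1*, *Foxd1*, *Foxd2*, *Foxf2*, *Foxl2*, *Foxp1* with 3 starts, and *Foxp4*). Each window runs from 250 bases before to 50 bases after a start. The windows of *Foxl2* and *Foxl2os* overlap by 204 bases. The 250 bases before the *Foxd2* start, chr4:114908899-114909148 on the minus strand, lie in the gap between *Foxd2* and *Foxd2os* and are shown as the stretch that separates a pair of divergent genes, with their 16 CpG pairs in capitals.
Foxd2 upstream: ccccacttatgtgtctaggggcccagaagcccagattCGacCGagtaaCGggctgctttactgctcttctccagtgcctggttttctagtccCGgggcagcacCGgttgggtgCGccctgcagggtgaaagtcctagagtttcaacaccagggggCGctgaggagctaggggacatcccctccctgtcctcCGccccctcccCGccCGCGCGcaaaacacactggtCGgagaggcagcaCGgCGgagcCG
Of the 9 windows, 8 held more CpG pairs than the median of 7 over all 32851 windows, as did 48.6% of all windows. The exception was 1 of the *Foxp1* starts, with 5, and another *Foxp1* start had the most, with 44. The sequence TAATTA, a core bound by many homeodomain proteins including the DLX factors, was searched on both strands and found in 1 of the 9 windows, the *Foxp1* window with 5 CpG pairs, and in 5.29% of all windows. The forkhead core TGTTTAC was found in 0 of the 9 and in 3.65% of all windows. These are matches of letters and not measured binding sites.

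Beside the 10 genes, 33 other forkhead genes were examined. A mean of at least 1 CPM was reached by 19 of them, and *Foxr1* had 0 counts in every library. Of the 23 that averaged 10 counts or more, 19 differed by more than counting noise (81.5% of all genes), 12 had a highest level of at least 2 times the lowest (34.8% of all genes), and replicate 1 held the highest level of 15 (39.6% of all genes) and replicate 3 of 3 (43.2% of all genes). Their median biological coefficient of variation was 0.383. These values were not tested against those of the 10 genes. The 10 genes took 45.3%, 50.1% and 64.8% of the counts on these 43 genes together in replicates 1, 2 and 3.

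Of the other forkhead genes, *Foxk2*, which acts in metabolism and autophagy, was at 155 ± 23.1 CPM (SD, n = 3), *Foxm1*, an activator of mitotic genes, at 139 ± 10.8, *Foxo4* at 56.7 ± 9.30, *Foxn3* at 44.4 ± 6.32, *Foxj3* at 41.3 ± 7.08, *Foxk1* at 37.2 ± 15.0, *Foxo3* at 26.9 ± 5.58, *Foxn2* at 24.2 ± 8.40, *Foxo1* at 14.3 ± 3.41 and *Foxj2* at 10.4 ± 0.674. *Foxk1* was at 51.0, 39.4 and 21.3 CPM and *Foxn2* at 31.2, 26.5 and 14.9 CPM, both lowest in replicate 3. With the trend on length and GC subtracted, the log2 ratio of replicate 3 went from -0.95 to -0.31 for *Foxn2* and from -1.07 to -1.10 for *Foxk1*.

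Several less abundant forkhead genes were highest in replicate 1. *Foxe1*, a gene of oral and thyroid epithelium whose loss gives cleft palate, was at 17.5, 8.48 and 7.91 CPM. *Foxi2* and *Foxi3*, genes of the cranial ectoderm, were at 23.1, 6.94 and 3.66 CPM and at 2.54, 1.71 and 0.212 CPM. *Foxd3*, a specifier of the neural crest that stays on in glial precursors, was at 6.81, 0.899 and 2.34 CPM, and *Foxj1*, a regulator of motile cilia, at 9.61, 3.34 and 3.00 CPM. The summed epithelium, neuron and glia markers were also highest in replicate 1, the last at 91.4, 24.3 and 24.1 CPM, and their part in these values was not tested. *Foxn4* was at 2.69, 3.37 and 3.11 CPM, *Foxe3*, a lens gene, at 1.09, 1.60 and 1.22, and *Foxo6* at 2.57, 0.899 and 1.91.

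**Figure D5:**
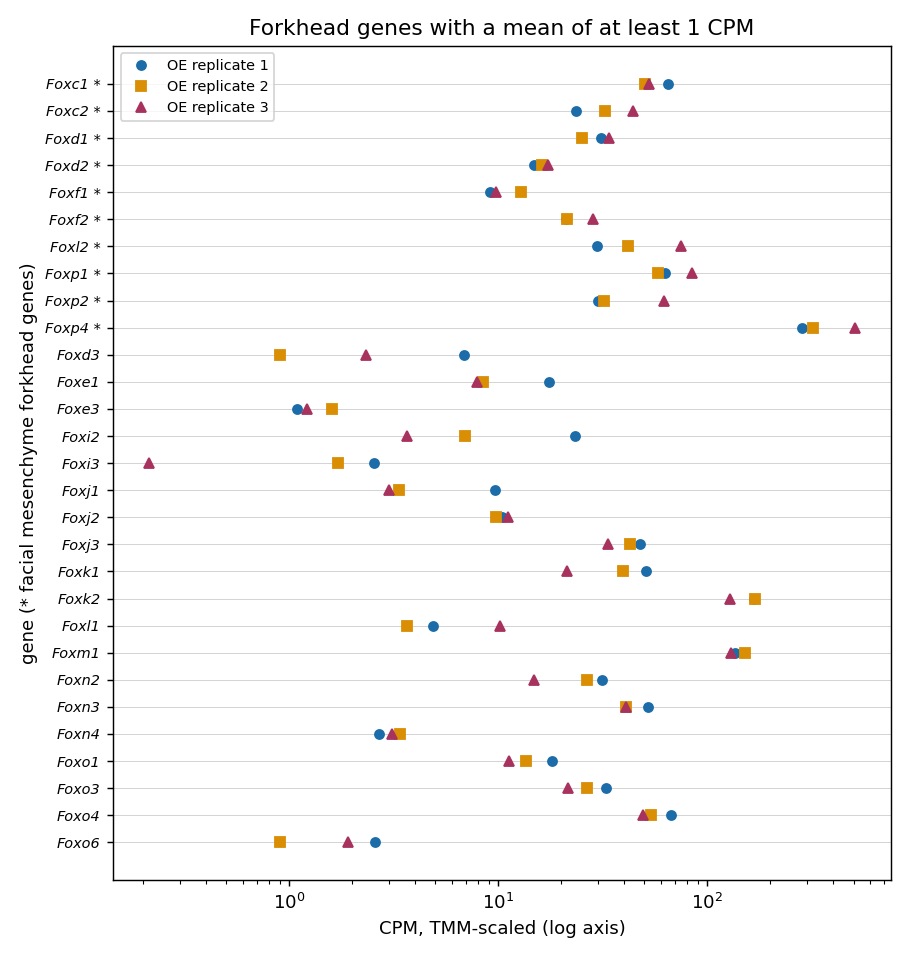
CPM (log axis) in each OE library for the 29 forkhead genes examined that have a mean of at least 1 CPM, with the 10 facial mesenchyme genes at the top and marked by asterisks. *Foxe1*, *Foxi2*, *Foxd3* and *Foxj1* have replicate 1 far to the right of the others, while *Foxl2*, *Foxp2* and *Foxp4* have replicate 3 there.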

How the data were processed

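Total RNA of E10.5 maxillary processes was sequenced as poly(A)-selected, paired-end libraries. Per the labels, the authors mapped reads to mm10 with STAR 2.7.3a and counted with HTSeq 0.12.4. They deposited raw counts per gene, without normalization. The strand setting and annotation release are not given in the sources used here. Rows that name no gene held 14.2%, 15.7% and 16.4% of the counted reads and were left out. Of 55401 identifiers, 55141 matched GENCODE M21 (GRCm38). A gene at 0 counts may have been present at up to 0.0843 CPM (3 counts, counting error only).

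CPM used edgeR 4.0.16 (TMM). Library ratios were differences of log2 CPM (prior count 2). Tests took genes that averaged 10 counts or more, at an adjusted p of 0.05. Length and GC trends came from mgcv 1.9.3. TPM used exonic lengths from GENCODE. DESeq2 1.42.0 gave alternative size factors and dispersions. R 4.3.3 and Python 3.11.15 were used, and the steps were tested on simulated data. All 10 genes are named, as are other forkhead genes at a mean of at least 1 CPM and locus neighbours. Also named are the 3 genes nearest in pattern to *Foxl2*, which had the largest ratio of highest to lowest CPM among the 10. *Foxp3* and *Foxr1* were named after their values were seen. An item on the lists of other forkhead genes and of markers is not reported here and is left out of their counts and sums. The genes and marker lists were chosen with earlier results of these data known.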

Additional observations from a re-analysis of the deposited data

How the results depend on the processing

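Of 158 alternative values, 2 changed sign by more than the spread between replicates, both with coding bases in place of exonic bases, at log2 ratios of 0.63 for *Foxc1* over *Foxc2* and 1.00 for *Foxd1* over *Foxd2*, by the construction of that length. The number of genes highest in replicate 3 went from 8 to 5 with the trend on exonic length and GC content removed and to 5 with the longest transcript. It was 6 with library totals, which shifted the median of all genes by 0.12 in replicate 1 and -0.13 in replicate 3. The number lowest in replicate 3 went from 0 to 2 with library totals, 4 with the trend on exonic length and 3 with that on the longest transcript, and in replicate 1 from 7 to 5 with each, while the number highest in replicate 1 went from 1 to 2 with each. The number with a 2-fold range went from 2 to 1 with library totals (*Foxl2*) and from 0 to 2 across the fits that left out 1 replicate. Across those fits the median biological coefficient of variation ran from 0.162 to 0.380, lowest without replicate 3, and the number beyond counting noise from 7 to 9. The median log2 ratio of replicate 1 ran from -0.43 to -0.11 across fits that left out 1 other replicate. Within the spread between replicates, the median log2 ratio of replicate 2 went from -0.20 to 0.11 without replicate 3 and to -0.44 without replicate 1, and that of *Foxd1* over *Foxd2* from -0.07 to 0.05 without replicate 2. The step from *Foxf1* to *Foxp2* in mean TPM reversed with the longest transcript and with coding bases. *Foxd2* was not beyond counting noise with library totals, or with no filter on low counts (28442 genes). With 3 libraries of 1 genotype, no value bears on a difference from wild type. No paired analysis was possible because there is only 1 group.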
